A study of Mus musculus with 13 samples.

Results

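The 7 mouse genes that encode the inhibitors of cyclin-dependent kinases were examined in cultured olfactory basal cells: Cdkn2a, Cdkn2b, Cdkn2c and Cdkn2d of the INK4 family and Cdkn1a, Cdkn1b and Cdkn1c of the CIP/KIP family. They were taken by symbol, and every deposited peak carrying one of the 7 symbols was used at any distance from the gene, which gave 181 peaks of 533196 in 8 peak lists and 7 of the 22517 symbols assigned to a peak. Of the 181 peaks, 39 lay within 2 kb of the start named by the authors and 101 beyond 10 kb. The study mapped chromatin by immunoprecipitation and sequencing (ChIP-seq) in wild-type C57BL6 cells. These were sorted from the olfactory epithelium of adult mice by their c-KIT protein and grown attached to gelatin with EGF, FGF2, heparin, BMP4 and SB431542. A peak is a stretch where the authors' caller found more reads than in its background. The fold is the authors' enrichment of that peak over background.

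Each of 4 antibodies was used on 2 cultures. H3K27me3, the histone mark laid down by Polycomb repressive complex 2, was mapped in line 1 at passage 12 (replicate 1) and in line 2 at passage 11 (replicate 2). RING1B, the ubiquitin ligase at the core of Polycomb repressive complex 1, was mapped in line 1 at passage 12 and in line 2 at passage 19. CBX8, a subunit of that complex that reads H3K27me3, was mapped in line 2 at passage 19 and in line 3 at passage 14. H3K27ac, the acetylation found at active promoters and enhancers, was mapped in line 2 at passage 13 and in line 3 at passage 14. All 8 libraries came from 3 wild-type lines, without another genotype or treatment, and the 5 input libraries were not analysed here. The replicates of an antibody differ in line and in passage, so line, passage and library cannot be told apart.

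CDK inhibitors bind cyclin-dependent kinases or their cyclin complexes and slow the passage of cells through the cell cycle. INK4 proteins bind CDK4 and CDK6, while CIP/KIP proteins bind a wider range of cyclin-CDK complexes. Cdkn2a encodes the INK4 protein p16Ink4a from an inner start and, from a start farther upstream with its own first exon, the unrelated protein Arf, which stabilises p53. The Cdkn2a and Cdkn2b genes lie side by side and are a classical Polycomb target: loss of Polycomb proteins in many cell types releases them and ends proliferation.

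The sequences below show the starts at which the peak lists differed within one gene, with Cdkn2b as the neighbour of Cdkn2a. They are RefSeq sequences of the GRCm38.p6 assembly, 300 bases each, from 250 bases before to 50 bases after the start and written 5′ to 3′ on the strand of the gene. Capitals mark CG dinucleotides. The starts of Arf (chr4:89294570-89294869, minus strand), Ink4a (chr4:89282143-89282442, minus strand) and Cdkn2b (chr4:89310983-89311282, minus strand) are followed by the upstream start of Cdkn1a (chr17:29090729-29091028, plus strand) and its second start (chr17:29093519-29093818, plus strand).
Cdkn2a Arf start: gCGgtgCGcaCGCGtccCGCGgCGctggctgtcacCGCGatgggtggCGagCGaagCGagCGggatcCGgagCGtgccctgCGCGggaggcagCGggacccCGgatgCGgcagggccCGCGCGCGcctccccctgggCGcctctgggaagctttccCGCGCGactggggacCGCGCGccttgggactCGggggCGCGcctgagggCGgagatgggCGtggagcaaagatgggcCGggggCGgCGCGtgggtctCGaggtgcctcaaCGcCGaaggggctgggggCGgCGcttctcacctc
Cdkn2a Ink4a start: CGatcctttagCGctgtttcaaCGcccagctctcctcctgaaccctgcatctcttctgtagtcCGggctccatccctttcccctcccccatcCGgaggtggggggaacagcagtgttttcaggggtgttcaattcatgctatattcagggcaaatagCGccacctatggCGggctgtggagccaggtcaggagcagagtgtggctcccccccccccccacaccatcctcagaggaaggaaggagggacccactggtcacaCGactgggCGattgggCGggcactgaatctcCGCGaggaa
Cdkn2b start: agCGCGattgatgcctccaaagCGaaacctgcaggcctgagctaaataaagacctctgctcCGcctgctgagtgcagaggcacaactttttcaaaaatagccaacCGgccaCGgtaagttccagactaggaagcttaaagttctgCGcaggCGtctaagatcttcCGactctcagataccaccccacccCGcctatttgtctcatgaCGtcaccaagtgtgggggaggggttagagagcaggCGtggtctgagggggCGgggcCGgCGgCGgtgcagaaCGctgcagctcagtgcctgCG
Cdkn1a upstream start: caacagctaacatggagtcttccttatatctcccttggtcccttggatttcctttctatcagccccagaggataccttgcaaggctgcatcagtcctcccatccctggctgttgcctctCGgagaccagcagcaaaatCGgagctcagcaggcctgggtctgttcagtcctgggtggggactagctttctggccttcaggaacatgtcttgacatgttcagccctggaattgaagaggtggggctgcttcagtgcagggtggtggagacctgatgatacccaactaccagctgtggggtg
Cdkn1a second start: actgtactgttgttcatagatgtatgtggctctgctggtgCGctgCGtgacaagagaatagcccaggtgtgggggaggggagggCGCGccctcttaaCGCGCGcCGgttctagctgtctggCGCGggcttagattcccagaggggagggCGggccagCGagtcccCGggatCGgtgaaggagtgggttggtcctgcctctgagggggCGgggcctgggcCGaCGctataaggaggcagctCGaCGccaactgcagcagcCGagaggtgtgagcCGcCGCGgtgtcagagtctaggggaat
The Arf sequence held 45 CG dinucleotides, more than 98.3% of the 32619 mouse promoters of the same length, whose median was 7. The Ink4a sequence held 12 and the Cdkn2b sequence 18. At Cdkn1a the upstream start held 2 CG dinucleotides and the second start 23. The motif GGGCGG, searched on both strands and found in 35.9% of all promoters, occurred 3 times at Arf, once each at Ink4a and Cdkn2b, 2 times at the second Cdkn1a start and not at the upstream one. TATAAA, found on either strand in 13.7% of promoters, was in none of these windows or of the others matched for the 7 genes. In all, 6 of the 7 genes had an entry, with 9 starts.

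The lists differed widely in size, which bears on every count of absent peaks. They held 68898 (replicate 1) and 101129 (replicate 2) peaks of H3K27me3, 7578 and 32918 of RING1B, 9926 and 77417 of CBX8, and 123155 and 112175 of H3K27ac. The sequencing depth behind them is unknown, and where no peak was listed, only that is stated. As a check of the label, the starts of the basal cell genes Sox2 and Hes6 carried H3K27ac and RING1B in both libraries of each. Kit, which encodes the protein used for the sort, carried H3K27me3 in both libraries (4.70-fold and 4.05-fold) and H3K27ac only in replicate 2 (2.45-fold). H3K27ac in both libraries was listed for 3 of 4 horizontal basal cell genes, 1 of 4 neuronal, 0 of 2 sustentacular, 1 of 3 fibroblast and 1 of 2 immune genes. Peaks at a start do not measure RNA, and whether other cell types contributed to the peaks of the CDK inhibitors was not tested.

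All 7 inhibitor genes carried H3K27ac at their start in both libraries, where a gene counted if each library had a peak within 2 kb of its outermost RefSeq start in either direction. The same held for 59.8% of the 21114 genes examined. H3K27me3 was listed in both libraries at 1 of the 7 starts, Cdkn1c, against 20.9% of all genes. CBX8 was listed in both at 1 of 7, Cdkn1b, against 5.62% of genes, and RING1B at 0 of 7, against 13.0%. The larger RING1B list, replicate 2, had peaks at 5 of the 7 starts (Cdkn2a, Cdkn2b, Cdkn2c, Cdkn1b and Cdkn1c), as did 45.4% of all genes. Replicate 1 had none at these starts, against 13.8% of genes. A RING1B peak in replicate 2 alone was found at 32.4% of all genes, and in replicate 2 at 64.2% of the genes with H3K27ac in both libraries. No test was made with 2 libraries for each antibody, and these shares are descriptions.

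**Figure D1:**
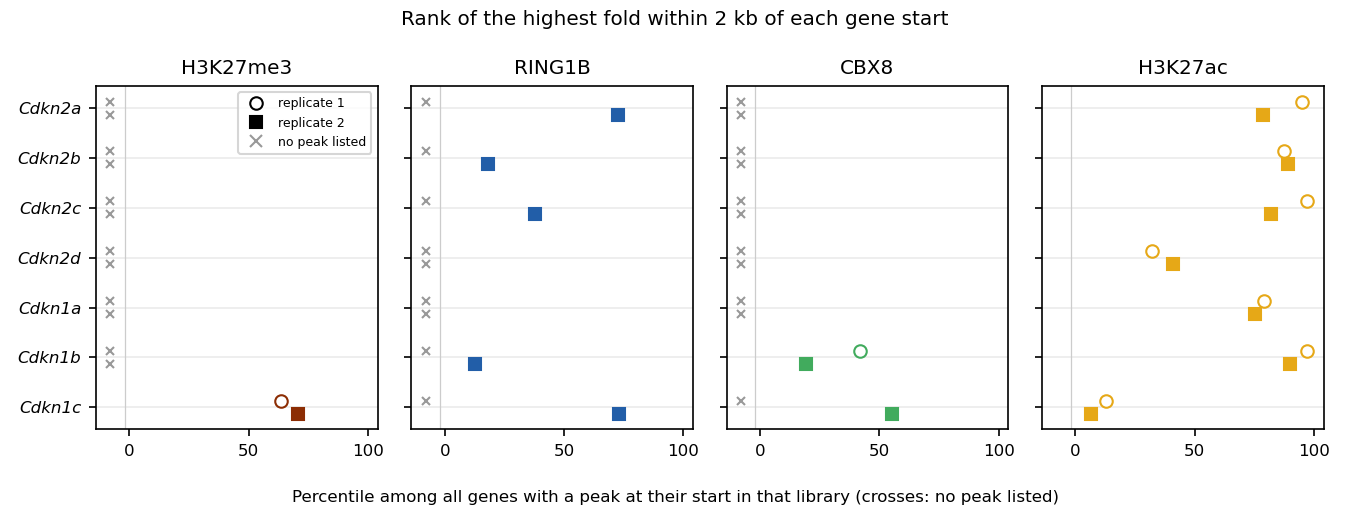
Percentile of the highest fold within 2 kb of each inhibitor gene's start (x axis, 0 to 100, among all genes with a peak at their start in the same library) for the 4 antibodies, with open circles for replicate 1, squares for replicate 2 and crosses where no peak was listed. H3K27ac has a value in both libraries for all 7 genes, with Cdkn1c lowest, and Cdkn1c alone has H3K27me3 values.

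The H3K27ac level at the start separated 6 of the genes from Cdkn1c. At the outermost start of Cdkn2a, that of Arf, the highest fold was 17.8 in replicate 1 and 13.2 in replicate 2 (mean 15.5 ± 3.26, SD, n = 2). At Cdkn2b, which encodes p15Ink4b, it was 15.02 and 15.66 (15.3 ± 0.456, SD, n = 2). At Cdkn2c, which encodes p18Ink4c, it was 19.3 and 13.9 (16.6 ± 3.82, SD, n = 2). The ranges of these 3 INK4 genes overlapped. Cdkn2c was above Cdkn2a in both libraries, by less than the spread between libraries, and Cdkn2b changed its place between them. Cdkn2d, which encodes p19Ink4d, was lower than the other INK4 genes in both libraries, at 7.30 and 8.29 (7.79 ± 0.703, SD, n = 2). In replicate 1 its start lay inside a peak 9.79 kb wide that the authors assigned to the neighbour Kri1, so this peak is not among the 181. The same peak gave the Kri1 start its 7.30-fold, so the fold cannot be divided between Cdkn2d and Kri1.

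Among the CIP/KIP genes, the Cdkn1a start, which gives the p53 target p21, had 13.2 in replicate 1 and 12.7 in replicate 2 (13.0 ± 0.394, SD, n = 2). The Cdkn1b start, which gives p27, had 19.3 and 16.0 (17.6 ± 2.30, SD, n = 2). At the start of Cdkn1c, the imprinted gene of p57, the values were 3.60 and 2.87 (3.23 ± 0.516, SD, n = 2). Cdkn1c was lowest of the 7 genes in both libraries and did not overlap the range of any other. Its folds stood at percentiles 13.0 and 6.34 among genes with an H3K27ac peak at their start. Cdkn2d stood at 32.3 and 40.9, and the lowest percentile of the other 5 genes was 75.2.

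At Cdkn2a, the acetylated start was that of Arf, and the Ink4a start 12.4 kb further along the gene was acetylated in 1 of the 2 libraries. The gene lies on the minus strand of chromosome 4 between 89274473 and 89294619 (mm10, the build of all deposited coordinates). The deposited annotation names 2 transcripts, one starting at 89294619 (Arf) and one at 89282192 (Ink4a). The Arf start lay inside H3K27ac peaks 3.26 kb and 3.59 kb wide, both of which reached from the first exon into the upstream flank. Both also covered the start of the non-coding RNA gene Gm12610, 0.561 kb upstream on the other strand. Their folds therefore cannot be divided between Arf and Gm12610. At the Ink4a start replicate 1 listed no peak, the nearest being 4.604 kb upstream. Replicate 2 listed one of 5.50-fold, 1337 bases wide, from 89281889 to 89283225, with a −log10 q of 11.9. The libraries differ in line here, line 2 for replicate 1 and line 3 for replicate 2, and 1 library of each cannot separate a line from a library. Over 21045 RefSeq starts of protein-coding genes, 4.03% had H3K27ac in replicate 2 alone, and the fold at Ink4a stood at percentile 92.9 of these 849 starts, whose median was 2.91.

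**Figure D2:**
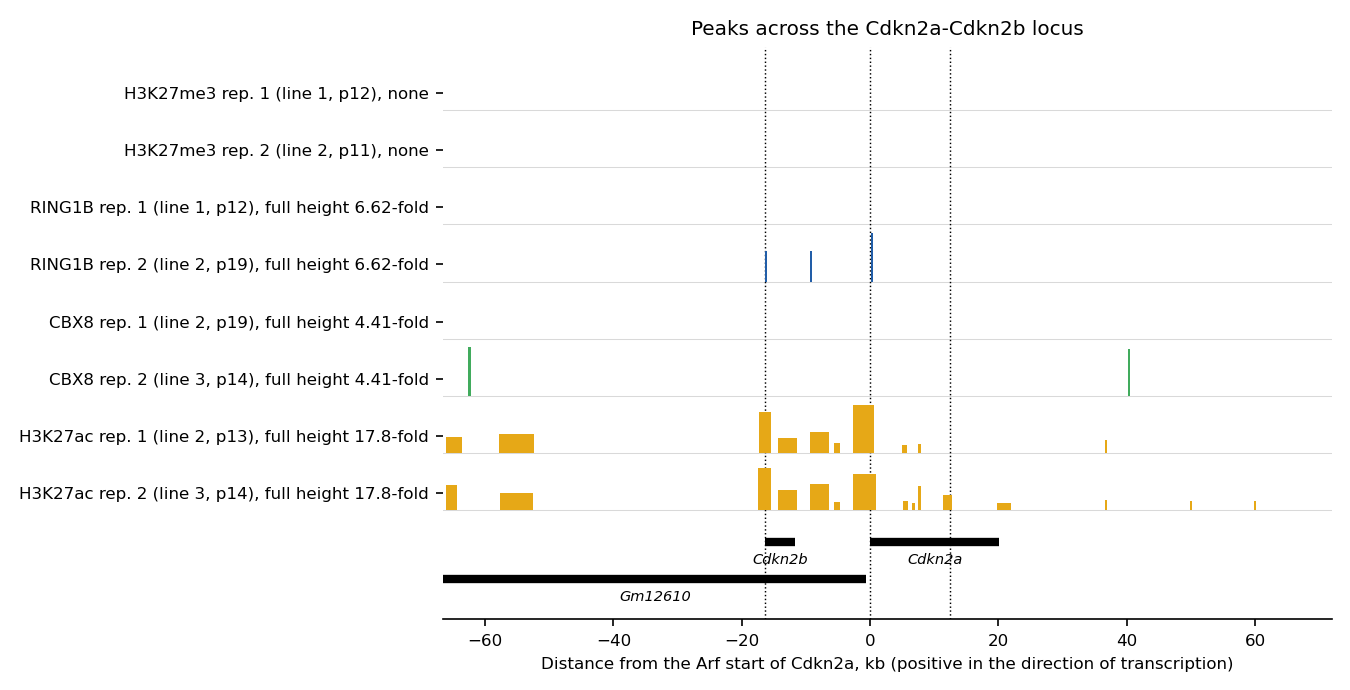
Deposited peaks of the 8 libraries around Cdkn2a and Cdkn2b, by distance from the Arf start in kb in the direction of transcription (x axis); bar height is the authors' fold, scaled for each antibody to its highest fold in view, and very narrow peaks are drawn at a minimum width. H3K27ac lies at the Arf and Cdkn2b starts in both replicates and at the Ink4a start in replicate 2, and H3K27me3, RING1B replicate 1 and CBX8 replicate 1 have no peak.

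Between the 2 starts, in the first intron of the Arf transcript, both libraries shared a narrow acetylated element. It spanned 319 bases in replicate 2 with 8.82-fold and 249 bases in replicate 1 with 3.49-fold. It ranked at percentile 90.8 of all H3K27ac peaks in replicate 2 and at 69.0 in replicate 1. A weaker site 5 kb inside the Arf start was also shared, at 2.84-fold and 3.32-fold. Replicate 2 alone had a peak of 2.55-fold beside the element and one of 2.86-fold over the 3′ end of the gene. H3K27ac covered 8.18% of the Cdkn2a gene in replicate 1 and 19.4% in replicate 2. The replicate 2 coverage includes the Ink4a peak itself, so the difference is no separate result.

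Upstream of Arf, the acetylation continued to Cdkn2b with little difference between the libraries. The 11.7 kb between the 2 genes was covered to 59.2% and 58.9%, and the 4.74 kb of Cdkn2b to 76.4% and 76.3%. Gm12610, a long non-coding RNA gene that starts 0.561 kb from Arf on the other strand and runs past Cdkn2b, was the authors' symbol for 2 intronic peaks there in each library. The stronger one had 7.85-fold and 9.59-fold and the weaker one 3.74-fold and 3.06-fold. A further shared peak covered the 3′ part of Cdkn2b at 5.60-fold and 7.59-fold.

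The Polycomb antibodies gave 5 narrow peaks in the 136.56 kb window from 50 kb below Cdkn2a to 50 kb above Cdkn2b, all in the larger lists. RING1B replicate 2 had 6.62-fold 201 bases inside the Arf start, 4.19-fold 120 bases inside the Cdkn2b start and 4.19-fold between the genes. Each of these 3 lay under H3K27ac peaks of both libraries. The Arf peak stood at percentile 72.7 and the Cdkn2b peak at 18.0 among genes with RING1B at their start in that library. No RING1B peak was listed within 2 kb of the Ink4a start in either library. CBX8 replicate 2 had 4.27-fold 27.8 kb downstream of the Ink4a start and 4.41-fold 45.9 kb upstream of Cdkn2b, away from both genes.

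No H3K27me3 peak was listed in that window in either library. The nearest to the Arf start lay 77.5 kb away in replicate 1, a peak of 332 bases and 3.70-fold at which both H3K27ac libraries also listed peaks (2.45-fold and 2.78-fold), and 20.6% of genes were farther from one in that list. In replicate 2 the nearest lay 266 kb away, where the median gene had one at 10.3 kb and 4.91% of genes were farther. The nearest RING1B and CBX8 peaks of the smaller lists were both 394 kb from Arf, at Dmrta1, with 24.6% and 21.7% of genes farther. Dmrta1, the next protein-coding gene upstream, carried all 3 Polycomb marks at its start in every library, with RING1B at 13.8-fold and 9.50-fold, CBX8 at 6.29-fold and 14.0-fold and H3K27me3 at 3.969-fold and 3.996-fold. It also had weak H3K27ac, at 2.52-fold and 3.27-fold. On the other side Mtap, 93.4 kb from Cdkn2a, had only H3K27ac, at 6.71-fold and 11.4-fold.

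Cdkn2b was the gene to which the authors assigned most of the inhibitor peaks, 68 of 181, and 63 of these were H3K27ac. Replicate 1 had 36 and replicate 2 had 27, where the median symbol had 4 in either list, and 1.47% and 2.07% of symbols had more. Of the 36, 26 overlapped a peak of the other library, and of the 27, 26 did. Thus 72.2% of the replicate 1 peaks and 96.3% of the replicate 2 peaks were shared. The share of all H3K27ac peaks that overlap the other library is not given here, so these shares have no background. In replicate 1 the shared peaks had a median of 4.86-fold and the 10 unshared ones 2.91-fold. In replicate 2 the shared peaks had a median of 5.41-fold and the 1 unshared peak 3.37-fold. All but 2 peaks in each library were beyond 10 kb. Those 34 and 25 lay between 36.0 and 181 kb upstream of the Cdkn2b start, before the next protein-coding gene at 377 kb. The authors' annotation placed all of them in introns or exons of Gm12610.

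**Figure D3:**
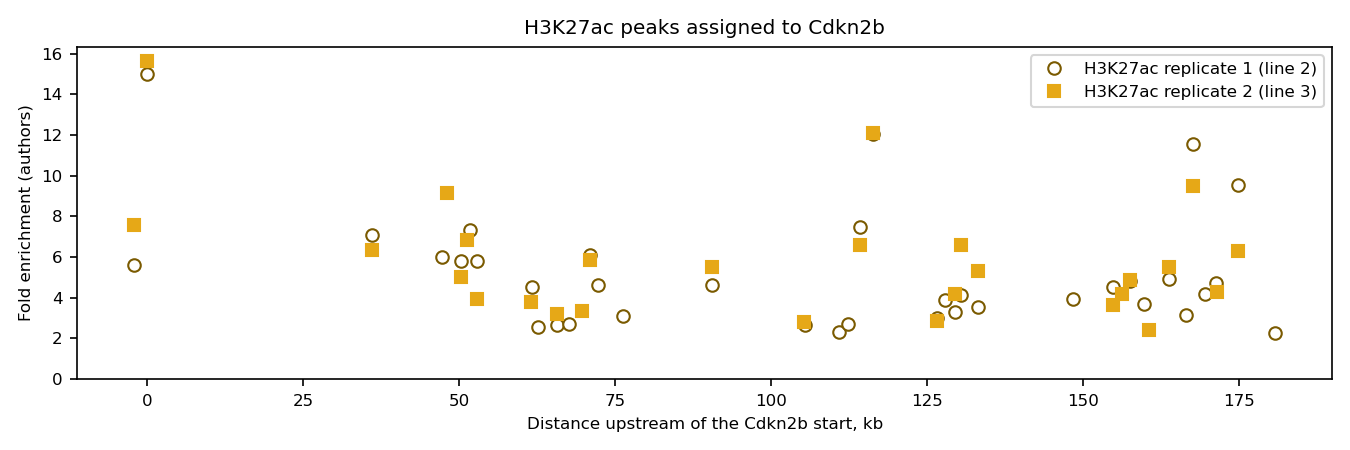
Each H3K27ac peak assigned to Cdkn2b, by distance upstream of the Cdkn2b start in kb (x axis) and the authors' fold (y axis), with open circles for replicate 1 and squares for replicate 2. The start itself has the highest fold in both libraries, and the highest distal peaks, 12.0-fold and 12.1-fold, coincide at 116 kb.

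The distal peaks ranged from 2.25-fold to 12.0-fold in replicate 1 (median 4.34) and from 2.43-fold to 12.1-fold in replicate 2 (median 5.01). The medians of the whole lists were 2.86 and 3.23. The highest lay 116 kb upstream in both libraries, and the next, at 168 kb, had 11.6-fold and 9.52-fold. A block 36.0 kb upstream, 5412 and 5133 bases wide, had 7.11-fold and 6.36-fold. The number of acetylated sites in the 200 kb upstream was not extreme among genes, since it was 38 in replicate 1 and 30 in replicate 2 where the median gene had 14, and 7.61% and 10.5% of genes had more. The assignment to Cdkn2b is by nearest start and does not show that these sites act on it.

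Cdkn2c had no H3K27me3 in its own peaks and none within 83 kb of its outermost start. RING1B replicate 2 had 2 peaks at its start, 4.81-fold and 3.20-fold, and CBX8 had none within 2 kb. A second site lay 7.10 kb downstream of the inner start (109665372 on chromosome 4, minus strand). There CBX8 replicate 2 had its highest inhibitor peak together with one at Cdkn1c, 9.20-fold, RING1B replicate 2 had 6.91-fold and 4.54-fold, and H3K27ac had 9.57-fold and 5.23-fold. No RING1B or CBX8 peak of replicate 1 was listed there. The nearest of RING1B replicate 1 was 5234 kb from the outermost start, with 0.440% of genes farther. Cdkn2d had no RING1B, CBX8 or H3K27me3 peak assigned to it, and 5 H3K27ac peaks in all. A 2.75-fold H3K27me3 peak of replicate 1 lay 2.24 kb from its outermost start, just outside the window.

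Cdkn1a was the only inhibitor gene with RING1B near a start in both libraries, and this was its second start. The gene lies on the plus strand of chromosome 17 from 29090979 to 29100722, with named starts at 29090979, 29093769 and 29098207. At 29093769 RING1B replicate 1 had 4.62-fold from 29093802 to 29094273. Replicate 2 had 3 peaks, of 5.25-fold, 5.25-fold and 5.64-fold, within 1 kb of the same start. When any named transcript start was allowed, 14.0% of all genes had RING1B in both libraries. The start with RING1B was the one with 23 CG dinucleotides, and the upstream start with 2 had none within 2 kb. The third start, whose sequence was not examined, also had none within 2 kb. Whether RING1B goes with CG content was not tested.

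The same stretch of Cdkn1a was under a wide block of H3K27ac, 10.6 kb in replicate 1 and 11.8 kb in replicate 2, wider than 99.1% and 99.3% of the peaks in those lists. It reached across all 3 starts. CBX8 replicate 2 listed 6.75-fold and 4.78-fold upstream of the gene. The nearest CBX8 peak of replicate 1 was 59.0 kb from the outermost start, and 63.0% of all genes were farther from one. H3K27me3 lay 13.3 kb (replicate 1, 2.86-fold) and 11.7 kb (replicate 2, 2.71-fold) past the third start, in overlapping peaks. The replicate 2 peak covered the start of Rab44, the next gene, and the replicate 1 peak lay within 2 kb of it. Within 2 kb the Rab44 start had H3K27me3 in both libraries (2.86-fold and 3.35-fold) and no H3K27ac. On the other side, replicate 1 had an H3K27me3 peak of 2.90-fold 7.96 kb upstream of the outermost Cdkn1a start, assigned to Trp53cor1.

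**Figure D4:**
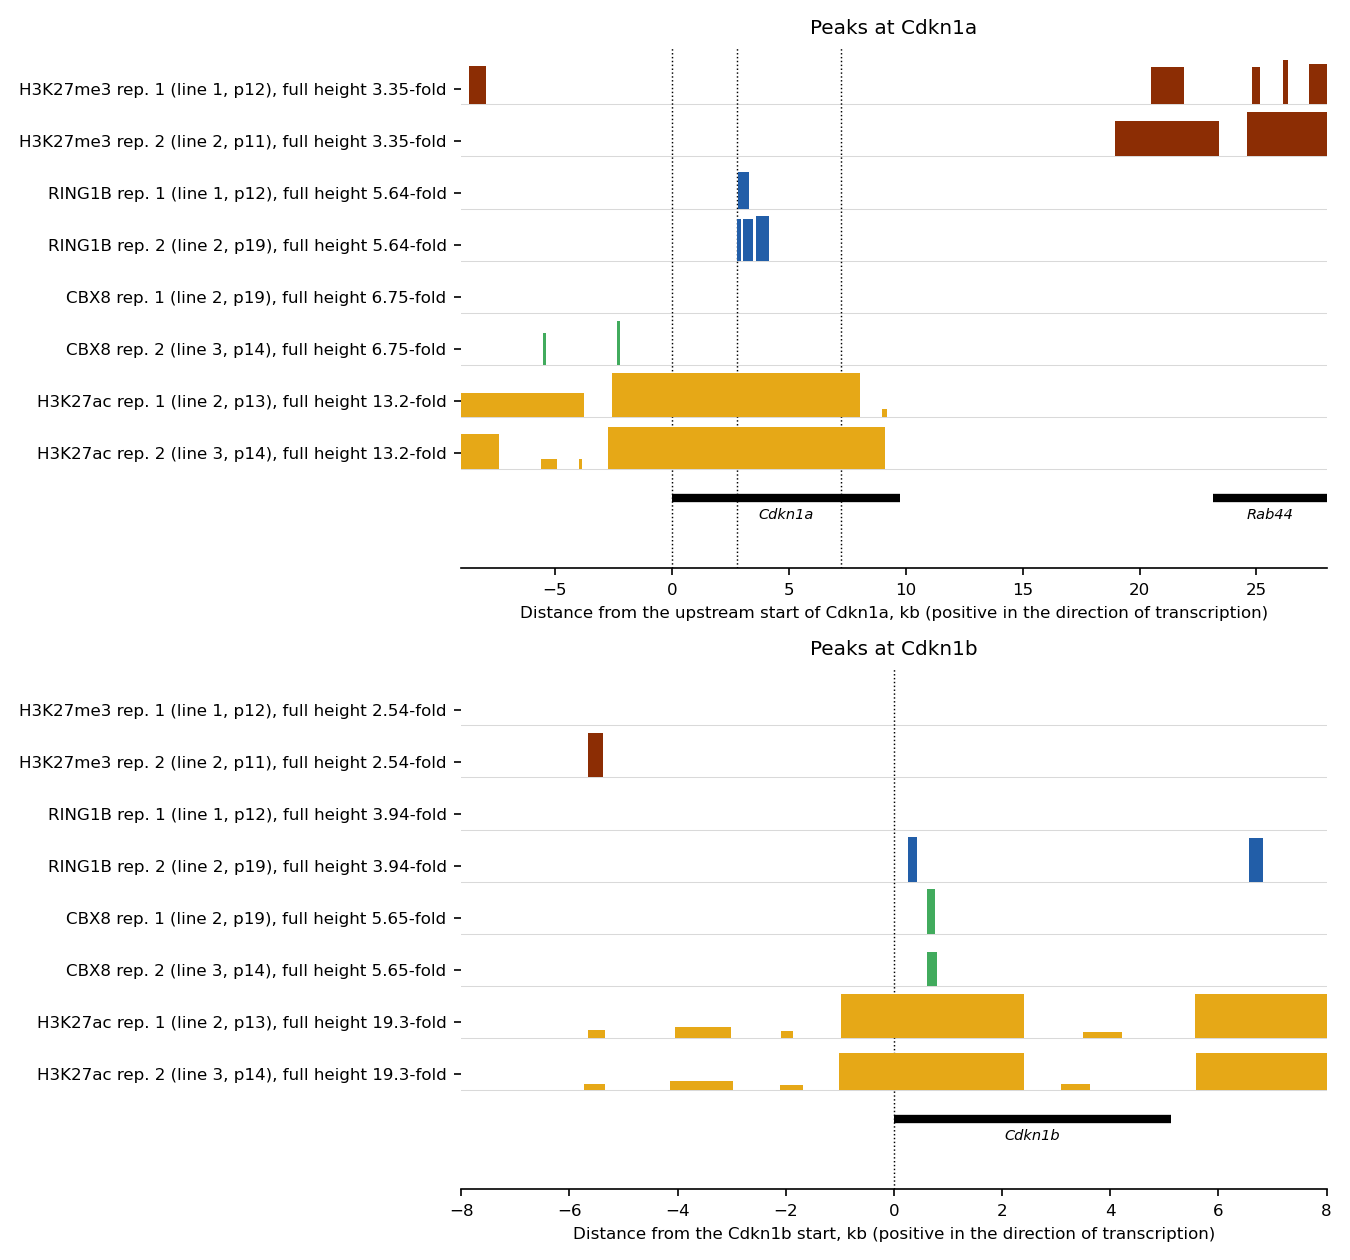
Deposited peaks around Cdkn1a and Cdkn1b by distance from the outermost start in kb (x axis), with bar height as the authors' fold scaled for each antibody to its highest fold in view and very narrow peaks drawn at a minimum width. RING1B of both replicates lies at the second start of Cdkn1a within the wide H3K27ac block, and CBX8 of both replicates lies just inside the Cdkn1b start.

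Cdkn1b was the only inhibitor gene with CBX8 at its start in both libraries. The peaks were narrow, 147 bases with 5.65-fold in replicate 1 and 172 bases with 4.36-fold in replicate 2 (5.002 ± 0.912, SD, n = 2). They began 608 and 618 bases inside the start at 134920401 on chromosome 6 and overlapped. They ranked low, at percentiles 42.1 and 19.4 among genes with CBX8 at the start, with a −log10 q of 5.31 and 3.99. RING1B replicate 2 had 3.94-fold 263 bases inside the start, beside the CBX8 peaks. H3K27me3 was listed only in replicate 2, at 2.54-fold 5.39 kb upstream, on a site that also had H3K27ac in both libraries (3.54-fold and 2.64-fold).

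Cdkn1c was the inhibitor gene with H3K27me3 at its start and with the weakest H3K27ac. The start, on the minus strand of chromosome 7 at 143461050, carried H3K27me3 at 3.52-fold in replicate 1 and 3.56-fold in replicate 2 (3.54 ± 0.0297, SD, n = 2). These stood at percentiles 63.4 and 70.6 among genes with H3K27me3 at their start. With its weak H3K27ac, Cdkn1c was the 1 inhibitor of 7 with both marks in both libraries of each, which 6.06% of all genes had. With a window of 1 kb this call ended, since the nearest H3K27ac peak of replicate 1 began more than 1 kb upstream. RING1B replicate 2 had 3 peaks within 2 kb, the highest 6.62-fold and over the start, and CBX8 replicate 2 had 5.15-fold and 4.41-fold. CBX8 in replicate 2 alone was found at 18.5% of all genes. RING1B replicate 1 had none within 188 kb, and 40.7% of all genes were farther from a peak of that list.

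**Figure D5:**
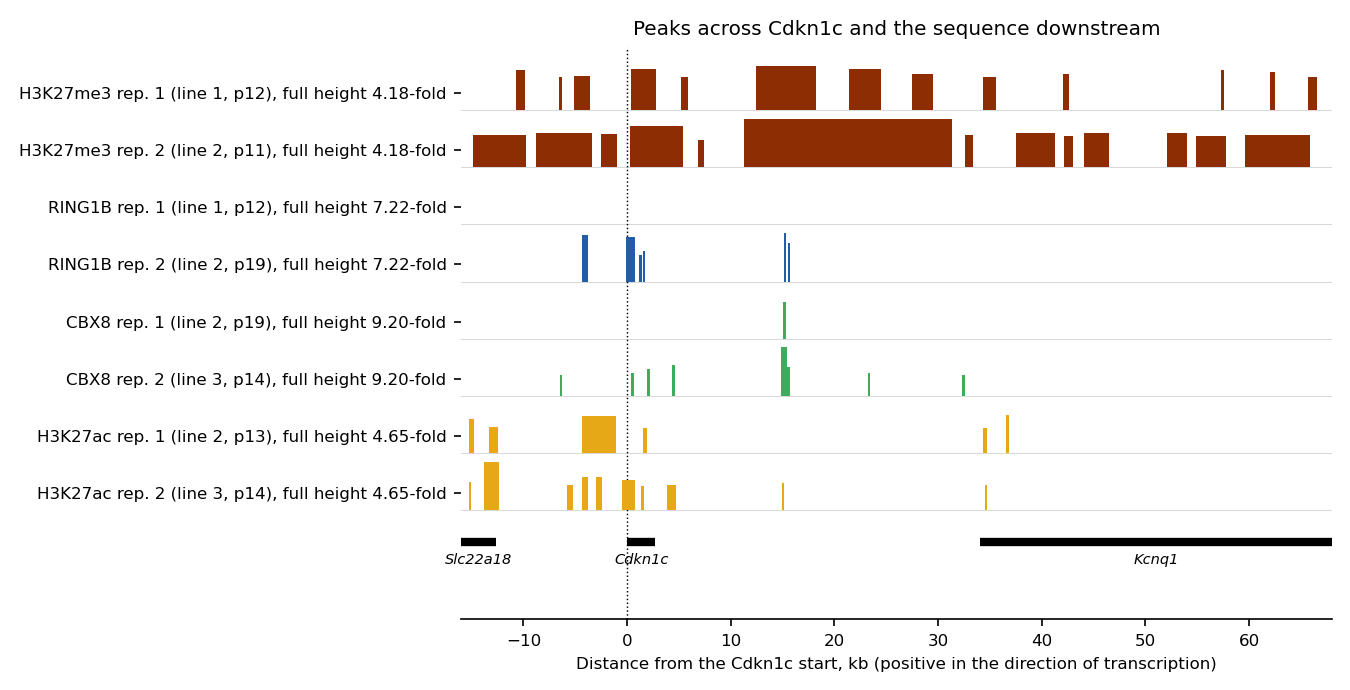
Deposited peaks around Cdkn1c by distance from its start in kb in the direction of transcription (x axis), with bar height as the authors' fold scaled for each antibody to its highest fold in view and very narrow peaks drawn at a minimum width. H3K27me3 of both replicates extends over the gene and far downstream of it, into Kcnq1, and CBX8 of both replicates meets RING1B replicate 2 about 15 kb downstream.

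H3K27me3 covered more of the surroundings of Cdkn1c than of any other inhibitor gene, in both libraries. In the gene with 10 kb on either side it covered 24.1% in replicate 1 and 62.9% in replicate 2, where the highest value for another inhibitor gene in either library was 2.64%. With 20 kb on either side Cdkn1c had 30.8% and 72.2%, and Cdkn1a, whose flank then took in the peaks near Rab44, had 9.20% and 25.1%. The library with the wider coverage was also the one whose list covered more of the genome, 188 Mb against 80.7 Mb. Over all distances 10 peaks (18.0 kb) and 12 peaks (51.6 kb) carried its symbol, which was assigned by nearest start. Those more than 34.0 kb downstream lay within the extent of the neighbour Kcnq1, in its last intron or a 3′ UTR. The widest with the Cdkn1c symbol were 5.81 kb with 3.80-fold in replicate 1 and 20.04 kb with 4.18-fold in replicate 2. Both lay between Cdkn1c and Kcnq1 and overlapped.

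About 15 kb downstream of the Cdkn1c start, inside those blocks, the Polycomb proteins met. CBX8 had 6.92-fold in replicate 1 and 9.20-fold and 5.52-fold in replicate 2, and RING1B replicate 2 had 7.22-fold and 5.72-fold. Apart from H3K27me3, the only other peak there was a 148-base H3K27ac peak of replicate 2 with 2.60-fold. Of the neighbours, Kcnq1 had H3K27me3, RING1B, CBX8 and H3K27ac at its start in both libraries of each, with RING1B at 5.998-fold and 12.34-fold. That start lay 354 kb from the Cdkn1c start, at the far end of Kcnq1. Slc22a18 had H3K27me3 (3.45-fold and 2.72-fold) and H3K27ac (2.47-fold and 4.65-fold). Trpm5, 364 kb from Cdkn1c, had only H3K27me3, at 2.83-fold and 2.90-fold. Phlda2 had strong H3K27ac, 12.3-fold and 10.7-fold, with no H3K27me3. Cdkn1c, Kcnq1, Slc22a18 and Phlda2 belong to one imprinted cluster, and the peak lists do not separate the parental alleles.

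When the 8 libraries were combined as percentiles at the start, with 0 where no peak was listed, Cdkn1c was 136 to 172 percentile points (Euclidean distance) from each other inhibitor gene. Pairs without Cdkn1c ranged from 22.4 (Cdkn2b and Cdkn2c) to 103 (Cdkn2a and Cdkn2d). Over all genes the patterns most like Cdkn2a were those of Mthfd1l (4.04), Trim27 (6.57) and Nsd2 (7.06). For Cdkn2b they were Sypl (0.936), Zfp36 (1.74) and Loxl4 (2.65), and for Cdkn1c Rasl11b (15.6), Hcn2 (18.7) and BC034090 (19.0). The genes close to Cdkn2a and Cdkn2b were picked by these same percentiles, so their shared pattern is no separate result. They had H3K27ac in both libraries and RING1B in replicate 2 alone. That combination was present at 28.9% of all genes and at 5 of the 7 inhibitor genes.

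The genes that the inhibitors act on or with formed a list of 33: cyclins, their kinases, the RB and E2F families and the p53 axis. Of these, 31 had H3K27ac at the outermost start in both libraries, the exceptions being Ccna1 (a germ-line cyclin) and Skp2 (the ligase subunit that targets p27). When any named transcript start was allowed, 32 of 33 had it, so not both exceptions hold under that rule. RING1B was listed in both libraries at 7 of 33: Ccnd2, Ccne2, Cdk6, E2f3, E2f6, Tfdp1 and Tfdp2, against 13.0% of all genes. The highest of them were Ccnd2, a D-type cyclin that activates the kinases INK4 proteins inhibit, at 24.4-fold and 51.2-fold, and E2f6, a repressive E2F, at 12.6-fold and 29.5-fold. CBX8 in both libraries was listed at Ccnd2 alone, at 52.4-fold and 5.89-fold, against 5.62% of all genes. H3K27me3 in both was listed at 2, Ccnd2 (3.44-fold and 4.28-fold) and Ccna1 (3.18-fold and 3.90-fold). Ccnd2 also carried H3K27ac in both libraries, at 8.90-fold and 10.3-fold, which is the combination of marks seen at Cdkn1c among the inhibitors, with RING1B and CBX8 in both libraries besides. For the 33 genes as for the 7, the share with H3K27me3 in both libraries can be read against 20.9% of all genes and the share with H3K27ac against 59.8%.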

How the data were processed

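The 8 ChIP-seq libraries were used as the peak lists deposited with them, each taken as 1 library. In CBX8 replicate 2 and both H3K27ac lists, peak names include the term combined, and no label or header explains it. Per the submitters' processing notes, the tools were MACS2 2.1.1.20160309, BWA 0.7.12, bcl2fastq 2.17 and Trim Galore 0.4.3, with the mm10 build. Caller options, control library and duplicate handling: not given in the sources used here. Per the file headers, the authors gave each peak a fold enrichment, a −log10 p-value and q-value, a score, a nearest transcript with its symbol and the distance to its start. The RING1B and CBX8 lists are narrow peaks and the H3K27me3 and H3K27ac lists broad ones, so the deposited folds, the authors' own values, were read only within an antibody.

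The 7 genes and the gene lists were chosen with earlier results of these data known. A peak was at a start if it overlapped the 2 kb on either side of the outermost RefSeq start by at least 1 base. Starts came from the GRCm38.p6 gene table, and strands from the deposited annotation or the promoter table, for 21114 of 21631 protein-coding genes (97.6%). Percentiles are ranks within 1 list. Named besides the 7 genes are listed genes with RING1B, CBX8 or H3K27me3 in both libraries or without H3K27ac, neighbouring genes, and the 3 genes of the smallest distance in percentile. Python 3.11.15, pandas 2.3.3, numpy 2.4.6 and matplotlib 3.10.9 were used, and the overlap functions were tested on simulated data. Window, strictness, start, assignment and replicates were varied. One marker list is not reported here in full.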

Additional observations from a re-analysis of the deposited data

How the results depend on the processing

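No test was made, depth is unknown, and an absent peak in the smaller lists of RING1B and CBX8 replicate 1 may lie below their threshold. Of 132 main counts and lengths under an alternative, 92 stayed within 1.5 times the main value, or within 1 SD for lengths, and 40 did not; the cause was not tested. No paired analysis was possible because the counts come from no test; libraries of different antibodies that share a line and passage were not paired.

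Keeping only peaks with a −log10 q of at least 5 left 0 of 7 inhibitor genes with H3K27me3 and 0 with CBX8, 0 of 33 pathway genes with H3K27me3, and 547 (H3K27me3) and 787 (CBX8) of all genes. It also ended the call of H3K27ac in both libraries at Cdkn1c, whose replicate 2 peak was lost. Peaks by symbol were then 0 and 1 for H3K27me3, 8 for CBX8 replicate 2, and 36 and 30 for H3K27ac. Within 10 kb they were 3 and 5 for H3K27me3, 1 and 8 for CBX8, and 19 and 28 for H3K27ac. Mean length covered around the 7 genes was 31.1 kb (H3K27me3) and 97.2 kb (H3K27ac) with 20 kb flanks, and 0.698 kb and 59.6 kb with the stricter peaks. These lengths add the windows of the genes. The windows of Cdkn2a and Cdkn2b overlap, so bases in both were counted for each gene.

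RING1B in both libraries rose from 0 to 1 inhibitor gene, Cdkn1a, with a window of 5 kb, any named start or the authors' symbol. With a window of 5 kb or any named start, pathway genes with CBX8 were 2. Removing peaks on bases listed in all 8 libraries left 1 pathway gene with H3K27me3. With a peak in at least 1 replicate, the inhibitor genes were 5 (RING1B) and 2 (CBX8), the pathway genes 24 and 9, and all genes 7443 (H3K27me3), 9753 (RING1B) and 5463 (CBX8). Leaving out one replicate gave 0 to 5 inhibitor genes for RING1B and 1 to 2 for CBX8, 7 to 24 and 2 to 8 pathway genes, and 2907 to 9596 and 1548 to 5101 of all genes. The higher values came without replicate 1.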
